A study of Mus musculus with 18 samples.

Results

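Ms4a1, Cd79a, Cd79b, Pax5, Cd22, Mzb1, Tnfrsf17, Pou2af1 and Prdm1, genes used to recognise B cells and plasma cells, were followed by symbol through all 18 RNA sequencing libraries of a study of amphiregulin and airway fibrosis. They are 9 of 23284 gene symbols in the mouse tables and 9 of 25410 used from the human tables. Mzb1 stands in the mouse tables under its older name 2010001M09Rik, which the RefSeq gene table pairs with Mzb1. The study held 6 groups of 3 libraries, compared here as 3 pairs of groups. Lungs came from BALB/c mice given OVA (ovalbumin), either wild type or labelled knockout and dGATA; the labels do not name the altered gene, and the series' design text speaks of house dust mite instead. Memory T helper 2 (Th2) cells with high ST2, a chain of the IL-33 receptor, were cultured for 3 days with IL-2 alone or with IL-33 added to it. Eosinophils were cultured for 3 days without or with amphiregulin (AREG), a ligand of the EGF receptor. The labels call all groups BALB/c, but the eosinophil tables carry human symbols and human coordinates and were read as human. The labels do not say if the replicates of a group were different animals, cultures or donors, and the p-values therefore speak of the spread among these libraries, which may be technical.

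B cells recognise antigen through a surface immunoglobulin that signals through the paired chains Cd79a and Cd79b, while Ms4a1 (CD20) is a surface protein of mature B cells and Cd22 is a sialic acid binding receptor that dampens this signal. Pax5 holds cells to the B cell fate, and Pou2af1 is a coactivator that works with octamer-binding factors at immunoglobulin genes. When a B cell becomes an antibody-secreting plasma cell, Prdm1 (Blimp-1) represses the B cell programme, Mzb1 serves immunoglobulin folding in the endoplasmic reticulum, and Tnfrsf17 (BCMA) carries survival signals. Prdm1 and Pou2af1 are also used by T cells. In the allergic lung, B cells and plasma cells gather around airways and vessels and secrete IgE and other antibodies.

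The deposited values are FPKM, fragments per kilobase of transcript scaled to the mapped fragments of the library, so levels of different genes are set per length. Total depth is unknown. Low FPKM values put the depth of a library, taken against library 1 of its comparison (2 in eosinophils), at 0.582 to 1 in lung, 0.669 to 1.34 in Th2 cells and 0.363 to 1 in eosinophils. Small RNA features took 3.99% to 5.11% of summed FPKM in lung, 12.1% to 21.3% in Th2 cells and 20.0% to 38.4% in eosinophils. The labelled cell types were checked against their markers. Summed FPKM of 12 T cell genes was 1851 to 2911 in the Th2 libraries. In the eosinophil libraries the eosinophil markers CCR3, SIGLEC8 and IL5RA were at 28.5 to 137, 13.6 to 72.9 and 1.41 to 10.6 FPKM. Of the other listed markers, PRG2 was at 8.63 to 138 and ALOX15 at 31.6 to 378 FPKM. EPX was low in most libraries, at 1.45, 0 and 0.552 FPKM without AREG and 23.6, 2.26 and 0.561 FPKM with it. S100A8, a gene abundant in neutrophils, was at 2882 to 8273 FPKM. Of 7 eosinophil genes tested in lung, 2 were called lower in dGATA, Ccr3 and Prg2 (limma adjusted p 0.00326 and 0.0427, log2 differences -2.50 and -2.88). The median log2 difference of the 7 was -0.43, and 0 were positive. Ear1, Ear2, Siglecf and Il5ra overlapped between the genotypes, and Alox15 did not. Of the 3 fits without 1 dGATA lung, the Ccr3 call held in 2 and the Prg2 call in 0 (adjusted p 0.0172 to 0.102 and 0.0876 to 0.263). Without a wild-type lung neither passed the filter, and with sample number as a block both calls were lost (adjusted p 0.0828 and 0.372).

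Promoters are shown for 4 members that the results turn on: Cd79a, Cd22 and Pou2af1, whose levels moved together over the lungs, and Prdm1, which moved the other way. They are RefSeq sequences of build GRCm38.p6, 300 bases around 1 annotated start site, most of them before it, printed along the gene's strand. Of the 9 members, 6 had an entry: Cd79a, Pax5, Cd22, Tnfrsf17, Pou2af1 and Prdm1. Capitals mark the match to the EBF1 site described after them. The windows are chr7:24897247-24897546 on the plus strand for Cd79a, chr7:30878979-30879278 on the minus strand for Cd22, chr9:51213440-51213739 on the plus strand for Pou2af1 and chr10:44458699-44458998 on the minus strand for Prdm1.
Cd79a: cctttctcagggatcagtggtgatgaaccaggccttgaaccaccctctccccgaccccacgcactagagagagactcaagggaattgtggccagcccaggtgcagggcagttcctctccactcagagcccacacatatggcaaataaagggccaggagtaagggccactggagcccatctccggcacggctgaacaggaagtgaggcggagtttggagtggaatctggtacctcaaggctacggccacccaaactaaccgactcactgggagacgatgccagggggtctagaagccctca
Cd22: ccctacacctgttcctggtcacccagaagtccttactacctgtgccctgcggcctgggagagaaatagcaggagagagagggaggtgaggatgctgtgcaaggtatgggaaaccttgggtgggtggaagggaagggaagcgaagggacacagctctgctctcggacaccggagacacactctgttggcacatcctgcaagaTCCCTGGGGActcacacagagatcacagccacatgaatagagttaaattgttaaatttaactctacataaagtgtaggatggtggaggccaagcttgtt
Pou2af1: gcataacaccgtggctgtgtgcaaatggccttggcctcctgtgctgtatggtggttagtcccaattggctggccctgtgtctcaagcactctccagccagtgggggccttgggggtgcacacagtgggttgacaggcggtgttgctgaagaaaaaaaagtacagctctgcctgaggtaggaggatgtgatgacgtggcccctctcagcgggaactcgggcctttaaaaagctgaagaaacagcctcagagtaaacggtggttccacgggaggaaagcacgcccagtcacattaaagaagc
Prdm1: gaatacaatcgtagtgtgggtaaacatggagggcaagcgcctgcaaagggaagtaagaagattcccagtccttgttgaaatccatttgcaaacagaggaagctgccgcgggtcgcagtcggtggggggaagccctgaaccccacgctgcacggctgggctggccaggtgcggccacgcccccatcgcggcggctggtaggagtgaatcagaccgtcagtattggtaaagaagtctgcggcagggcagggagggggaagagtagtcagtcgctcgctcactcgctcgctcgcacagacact
The palindromic site of the B lineage factor EBF1, TCCC, any 2 bases and GGGA, which reads the same on both strands, was found once among the 6 member promoters, in Cd22, with its first base at -49 relative to the start site. It was present in 0.904% of all 32851 promoters in the table. The octamer ATGCAAAT, searched on both strands, was in 1.74% of all promoters and in 0 of the 6 member promoters. These matches describe letters in the windows only.

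In the authors' mouse coordinates on mm10, the genes lie on different chromosomes except for Cd79a (chr7:24897511-24902197) and Cd22 (chr7:30865404-30880342). The others are Ms4a1 (chr19:11250603-11266151), Cd79b (chr11:106311341-106314529), Pax5 (chr4:44531506-44710440), Mzb1 (chr18:35647265-35649367), Tnfrsf17 (chr16:11313809-11320068), Pou2af1 (chr9:51213690-51240079) and Prdm1 (chr10:44437175-44458687).

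Across the 6 groups, Ms4a1, Cd79a, Cd79b, Pax5, Cd22, Mzb1 and Tnfrsf17 had their highest mean FPKM in lung and their lowest in Th2 cells, where none of the 7 reached 1 FPKM in any library. Tnfrsf17 was listed at 0 in eosinophils with AREG as well. Mean Cd79a was 42.0 ± 21.0 FPKM (SD, n = 3) in wild-type lung, 35.2 ± 20.0 in dGATA lung, 16.4 ± 12.4 in eosinophils without AREG, 14.2 ± 12.7 with it, 0.397 ± 0.137 in Th2 cells with IL-2 and 0.325 ± 0.208 with IL-33 added. Neighbouring groups in that order overlapped except between eosinophils and Th2 cells. Mean Cd79b was 38.9 ± 18.4 and 38.0 ± 17.96 FPKM in wild-type and dGATA lung, and 4.60 ± 2.29 with AREG and 3.43 ± 1.57 without AREG in eosinophils.

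Prdm1 and Pou2af1 had other orders. Mean Prdm1 was 54.8 ± 6.80 FPKM (SD, n = 3) in Th2 cells with IL-33, 32.7 ± 9.52 with IL-2 alone, 14.2 ± 9.54 and 9.77 ± 4.88 in eosinophils with and without AREG, and 4.05 ± 0.440 and 4.01 ± 0.294 in wild-type and dGATA lung. Lung was thus the lowest source of Prdm1, and its 2 groups overlapped. Mean Pou2af1 was 14.4 ± 0.622 FPKM in Th2 cells with IL-2, 14.3 ± 8.43 in wild-type lung, 13.4 ± 8.96 in dGATA lung and 8.09 ± 2.33 in Th2 cells with IL-33, and these 4 neighbours overlapped each in turn. In eosinophils its human counterpart stayed at 0.519 ± 0.476 and 0.276 ± 0.328 FPKM with and without AREG. These orders set levels side by side across tables that were scaled library by library, and the human genes have their own annotation, so no test was made between the cell sources.

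**Figure D1:**
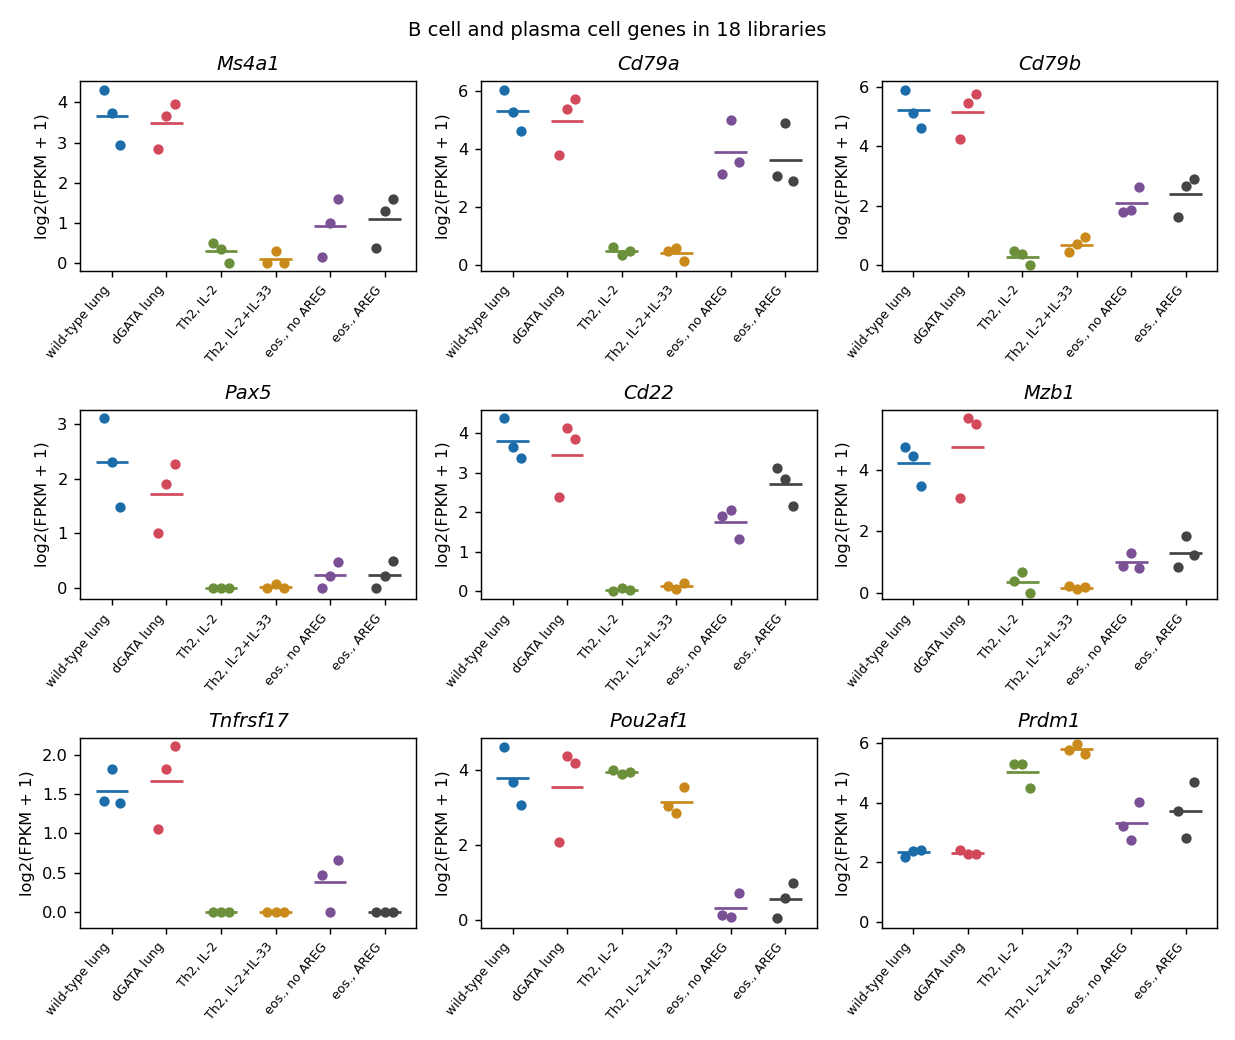
Each panel plots log2(FPKM + 1) of 1 member in 18 libraries, with points for libraries, bars for group means and 6 groups on the horizontal axis (human counterparts in the eosinophil groups). Most members sit highest in lung and near 0 in Th2 cells, whereas Prdm1 is highest in Th2 cells with IL-33 and lowest in lung.

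In the lung, the comparison asked whether B cell and plasma cell transcripts differed between OVA-treated wild-type and dGATA animals. None of the 9 members differed beyond the spread between libraries. All 9 passed the filter of at least 1 FPKM in at least 3 of 6 libraries, and limma on log2(FPKM + 1) called 0 of 9 at an adjusted p below 0.05. Among all 13727 genes tested it called 0.0947%. At an unadjusted p below 0.05 it gave 0 of 9 members and 939 of all genes, and groups were free of overlap for 0 of 9 members against 14.1% of all genes. The members' median log2 difference, dGATA minus wild type, was -0.18, against -0.03 over all genes. In whole lung, fewer cells of a type and less RNA per cell cannot be told apart.

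The 2 antigen receptor chains showed the range within each group. Cd79a was at 65.0, 37.4 and 23.7 FPKM in the wild type (libraries 1, 2 and 3) and at 12.97, 40.8 and 51.8 FPKM in dGATA lungs 1, 2 and 3. The highest library was thus wild type and the lowest dGATA, while dGATA lungs 2 and 3 lay above wild-type lungs 2 and 3. Its log2 difference was -0.34 (SE 0.576, 95% interval -1.73 to 1.05, limma adjusted p 0.950). Cd79b followed the same libraries, at 59.2, 33.8 and 23.6 FPKM in wild-type and 18.1, 43.0 and 53.0 FPKM in dGATA lungs. Its log2 difference was -0.06 (SE 0.476, interval -1.21 to 1.09, limma adjusted p 0.990), so neither a loss nor a gain of about 1 log2 unit lies outside the interval. The ratio of Cd79a to Cd79b FPKM stayed between 0.717 and 1.11 in all 6 lungs. It was 1.00 to 1.11 in wild-type and 0.717 to 0.978 in dGATA lungs, which was not tested.

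Ms4a1, the CD20 gene, was at 19.0, 12.3 and 6.61 FPKM in the wild type and 6.09, 11.6 and 14.5 FPKM in dGATA lungs. The groups overlapped almost completely, and the log2 difference was -0.18 (SE 0.423, interval -1.20 to 0.84, limma adjusted p 0.961). Cd22, the inhibitory receptor, was at 19.8, 11.5 and 9.41 FPKM in wild-type lungs against 4.17, 16.5 and 13.5 FPKM in dGATA lungs. Only dGATA lung 1 fell below the wild-type range, and the log2 difference was -0.35 (SE 0.4995, interval -1.55 to 0.86, limma adjusted p 0.940).

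The transcriptional regulators divided into 2 that varied widely and 1 that hardly varied. Pax5 was at 7.62, 3.94 and 1.79 FPKM in the wild type and 1.00, 2.73 and 3.84 FPKM in dGATA lungs, overlapping between them. Its log2 difference, -0.57 (SE 0.486, interval -1.74 to 0.60, limma adjusted p 0.886), was the furthest from 0 among the 9 members. Pou2af1, the octamer coactivator, was at 23.7, 11.9 and 7.38 FPKM in wild-type and 3.20, 19.8 and 17.3 FPKM in dGATA lungs, a log2 difference of -0.25 (SE 0.693, interval -1.92 to 1.43, limma adjusted p 0.967). Prdm1 was at 3.54, 4.23 and 4.36 FPKM in wild-type and 4.35, 3.85 and 3.83 FPKM in dGATA lungs. Its log2 difference of -0.01 had the narrowest interval of the members, -0.26 to 0.24 (SE 0.105, limma adjusted p 0.992).

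The 2 plasma cell genes had positive differences that also failed the test. Mzb1, the immunoglobulin folding cofactor, was at 25.6, 20.9 and 10.2 FPKM in the wild type and 7.46, 49.99 and 43.8 FPKM in dGATA lungs. Of the dGATA lungs, 2 and 3 exceeded every wild-type lung and 1 lay below them all. The log2 difference was 0.52 (SE 0.731, interval -1.24 to 2.29, limma adjusted p 0.938), and without dGATA lung 1 it was 1.35 with an adjusted p of 0.213. Tnfrsf17, the BCMA receptor, was at 1.66, 2.54 and 1.61 FPKM in wild-type and 1.08, 2.54 and 3.31 FPKM in dGATA lungs, a log2 difference of 0.12 (SE 0.288, interval -0.57 to 0.82, limma adjusted p 0.961).

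**Figure D2:**
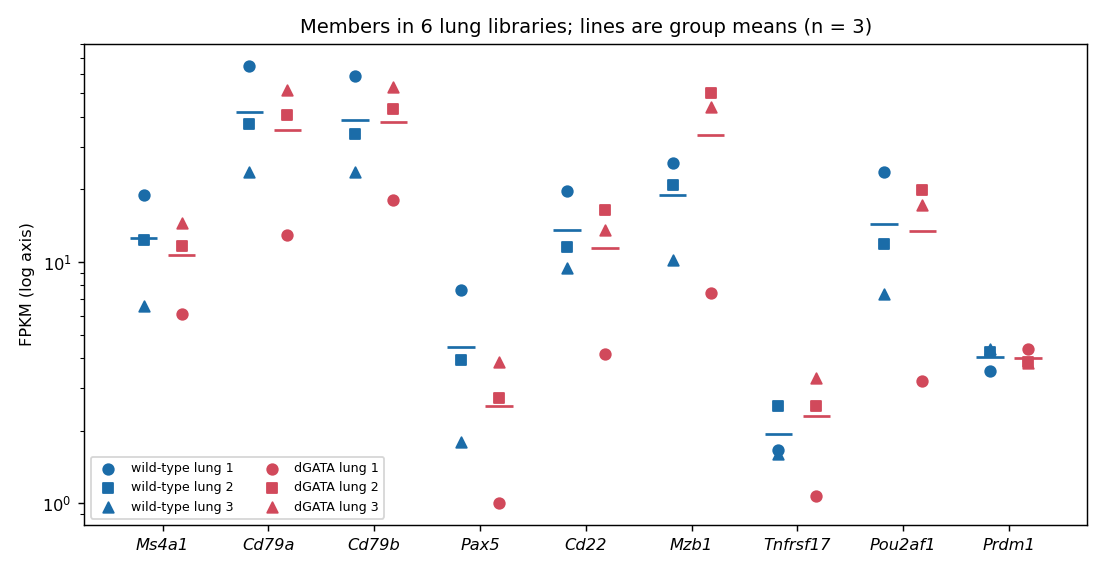
FPKM on a log axis is plotted for each member in 6 lung libraries, with marker shape giving the library number, colour the genotype and lines the group means (n = 3). The dGATA lung 1 circle is the lowest point for 8 of 9 members, and wild-type lung 1 is the highest for 6.

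The same 2 libraries held the extremes for most members. The highest lung exceeded the lowest 7.60-fold for Pax5, 7.41-fold for Pou2af1, 6.70-fold for Mzb1, 5.01-fold for Cd79a, 4.74-fold for Cd22, 3.27-fold for Cd79b, 3.11-fold for Ms4a1 and 3.08-fold for Tnfrsf17, but 1.23-fold for Prdm1. Over 13663 genes past the filter and above 0 in every lung, the median of this ratio was 1.43, and 1 gene in 10 exceeded 2.62. Library dGATA 1 was lowest for all members but Prdm1, and wild-type 1 was highest for Ms4a1, Cd79a, Cd79b, Pax5, Cd22 and Pou2af1. Without dGATA lung 1 the log2 differences of Ms4a1, Cd79a, Cd79b, Cd22 and Pou2af1 turned positive (0.14, 0.24, 0.39, 0.19 and 0.49), none called. Without wild-type lung 1 those of Ms4a1, Cd79a, Cd79b and Pou2af1 were positive too (0.15, 0.026, 0.29 and 0.17), again with none called, and that of Mzb1 was 0.78.

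Sums of T cell, macrophage and dendritic cell genes were also low in dGATA lung 1, and the sum of neutrophil genes was not. The summed FPKM of 12 T cell genes was 67.3 there, against 103 to 133 in wild-type lungs and 134 and 175 in the other dGATA lungs. The sum of 10 macrophage genes was 618 there against 1356 to 1560 in wild-type lungs, and that of 7 dendritic cell genes was 47.9 against 101 to 125. In dGATA lungs 2 and 3 these sums were 1978 and 1467 for macrophage and 226 and 94.5 for dendritic cell genes. The dendritic cell sum of dGATA lung 3 thus also lay below the wild-type range. The sum of 7 neutrophil genes there was 177 FPKM, within the wild-type range of 125 to 225, and that of 10 housekeeping genes was 3020 FPKM, the lowest of the 6 lungs, against 3547 to 4400 in wild-type lungs. By contrast, 5 endothelial genes summed to 821 FPKM there, the highest of the 6 lungs, against 611 to 709 in wild-type lungs. Single genes departed from the sums of their lists in dGATA lung 1. Marco (2.18 FPKM), Clec9a (17.4 FPKM) and the housekeeping genes Hprt (46.6 FPKM) and Ywhaz (103 FPKM) were the highest of the 6 lungs there. The endothelial gene Vwf (48.4 FPKM) was the lowest. Mertk (17.7 FPKM) and Trat1 (2.10 FPKM) lay above the wild-type range, and the neutrophil gene Csf3r (5.87 FPKM) was the lowest of the 6 lungs. Apart from 1 neutrophil gene in each dGATA lung, no gene of these lists was at 0. Their part in the members' values was not tested.

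Over the 6 lungs, the B cell members varied together, and Prdm1 ran against them. With Cd79a, on the log2(FPKM + 1) scale, Pearson's r was 0.980 for Cd79b (Spearman's rho 1, exact permutation p 0.00139 and 0.00278, n = 6). For Pou2af1 r was 0.974 (rho 0.943, exact permutation p 0.00417 and 0.0167), for Ms4a1 0.957 (rho 0.943, p 0.00278 and 0.0167), for Cd22 0.957 (rho 0.943, p 0.00556 and 0.0167) and for Pax5 0.938 (rho 0.829, p 0.00972 and 0.0583). Prdm1 had an r of -0.860 (rho -0.943, exact permutation p 0.0278 and 0.0167), over a range of levels of only 1.23-fold. After Benjamini-Hochberg adjustment over 14 relations, the exact permutation p of r was 0.00648 to 0.0194 for the 5 positive members named here and 0.0486 for Prdm1.

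The plasma cell members followed Cd79a less closely in these 6 lungs. For Mzb1 r was 0.825 (rho 0.771, exact permutation p 0.0389 and 0.103, adjusted p of r 0.0605), and for Tnfrsf17 it was 0.674 (rho 0.657, exact permutation p 0.135 and 0.175, adjusted p of r 0.145). Without wild-type lung 1 and dGATA lung 1, the 2 libraries farthest from the median of Cd79a, r over the remaining 4 was 0.982 for Cd79b, 0.973 for Ms4a1, 0.889 for Pou2af1, 0.838 for Pax5 and 0.762 for Cd22. It was 0.903 for Mzb1, 0.994 for Tnfrsf17 and -0.872 for Prdm1, so each kept its sign. All values of 1 library share its depth and its scaling to the mapped fragments.

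**Figure D3:**
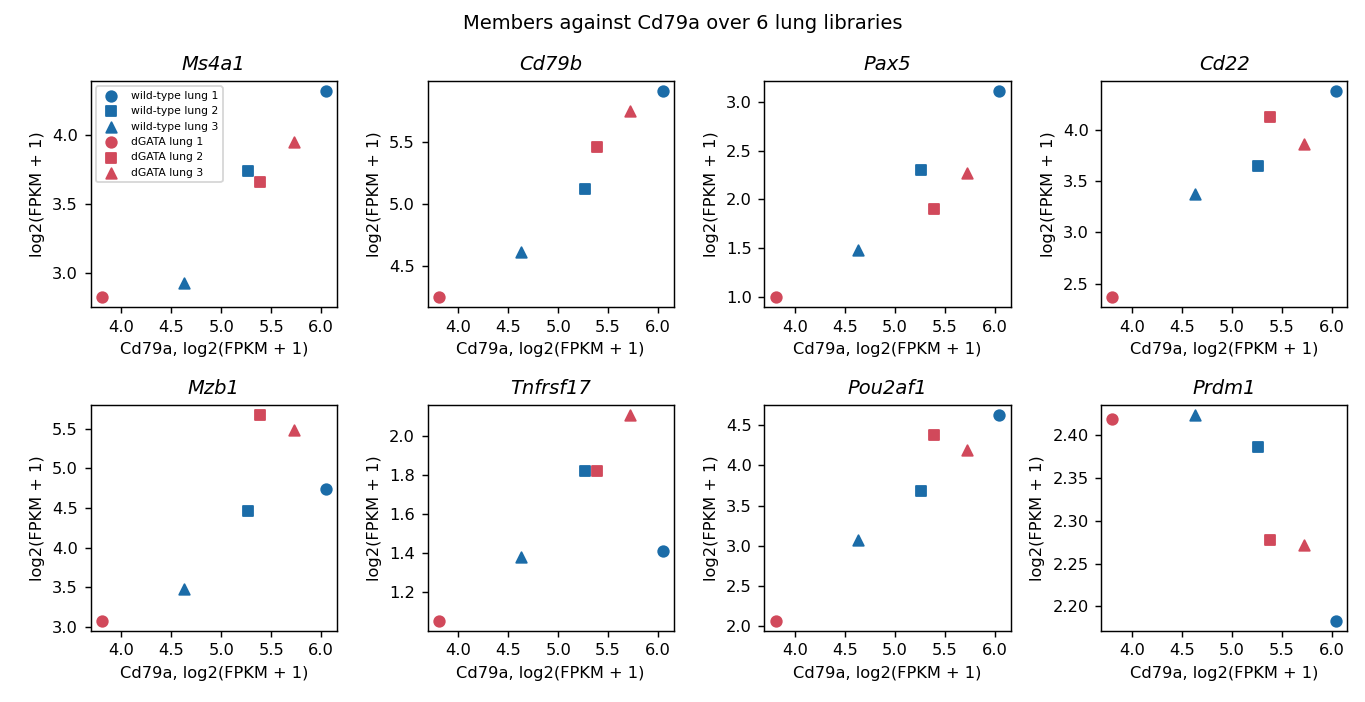
Each panel plots 1 member against Cd79a, both as log2(FPKM + 1), with 1 point for each of 6 lung libraries (colour for genotype, shape for number). Wild-type lung 1 and dGATA lung 1 lie at opposite ends for most members, and Prdm1 slopes downward (r = -0.860).

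Mean log2(FPKM + 1) of the 20 other B cell genes followed Cd79a with an r of 0.993 (rho 1, exact permutation p 0.00139 and 0.00278; adjusted p of r 0.00648), and 0.999 without the 2 farthest lungs. The same mean over 5 endothelial genes ran the other way, with an r of -0.970 (rho -1, exact permutation p 0.00139 and 0.00278; adjusted p of r 0.00648) and -0.933 without them. For T cell and macrophage genes r was 0.755 and 0.767 (rho 0.771 and 0.6, exact permutation p of r 0.0806 and 0.0903, of rho 0.103 and 0.242, adjusted p of r 0.103 and 0.105) and dropped to 0.346 and 0.0981, so those 2 relations rested on the 2 extreme libraries. For the 14 plasma cell genes r was 0.814 (rho 0.486, exact permutation p 0.0542 and 0.356, adjusted p of r 0.0758) and 0.609 without the extremes, and for lung epithelium -0.327 (rho -0.2, exact permutation p 0.538 and 0.714) and 0.989.

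Of 12456 named genes outside the members, those most like Cd79a over the 6 lungs by Pearson's r included H2-Ob (0.999), Zbtb45 (0.990), Fcrl1 (0.989), Galnt12 (0.986) and Grk6 (0.984). H2-Ob encodes a chain of the nonclassical class II protein H2-O of B cells, and Fcrl1 an Fc receptor-like protein of B cells. H2-Ob was at 12.5, 6.59 and 4.23 FPKM in the wild type (libraries 1, 2 and 3) and at 1.76, 7.57 and 9.87 FPKM in dGATA lungs 1, 2 and 3, the same order of libraries as Cd79a. Those most like Mzb1 were Sidt1 (0.991), Stoml2 (0.990), Mlph (0.989), Abcb6 (0.988) and the histone genes Hist1h4b and Hist1h4k (both 0.986, with identical values in all 6 libraries). Some of the genes named varied little: Abcb6 was at 3.90 to 4.28 FPKM, Stoml2 at 18.6 to 21.5 and Zbtb45 at 5.54 to 7.08. With 12456 genes ranked over 6 libraries, the highest r values can arise without any relation, and none was tested.

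The wider B cell and plasma cell lists gave 0 calls in the lung as well. Among the other B cell genes 0 of 20 were called (median log2 difference -0.35, 1 with an unadjusted p below 0.05, Cd40). Among the B lineage transcription factors 0 of 10 tested were called (median -0.29, 1 unadjusted, Bcl6), and among B cell receptor signalling genes 0 of 16 (median -0.30, 0 unadjusted). Of the 11 tested survival and homing genes 0 were called (median -0.13, 0 unadjusted), by limma as before. Among the plasma cell genes 0 of 14 were called (median -0.10), with 1 at an unadjusted p below 0.05. That gene was Sdc1, which encodes syndecan-1, a plasma cell surface marker that epithelium also makes. It was at 51.8, 57.4 and 54.4 FPKM in wild-type and 74.4, 71.0 and 68.5 FPKM in dGATA lungs, without overlap (log2 difference 0.38, SE 0.0811, limma adjusted p 0.413). Over the 7 lung epithelium genes, 7 had a positive log2 difference with a median of 0.27, and their part in the Sdc1 value was not tested. Jchain, which links polymeric antibodies, was at 116, 149 and 94.4 FPKM in wild-type and 22.6, 303 and 264 FPKM in dGATA lungs, the pattern of Mzb1 (log2 difference 0.06, interval -2.27 to 2.40, limma adjusted p 0.993). Immunoglobulin constant genes were not analysed here.

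In the Th2 cultures, the comparison asked what IL-33 added to IL-2 did to the same genes. With IL-33, Prdm1 rose and Pou2af1 fell, while the 7 B cell-restricted members were near 0 in every library. Both genes that passed the filter were called, 2 of 2. In this comparison limma called 42.1% of 10296 genes, 16.3% higher and 25.7% lower, and 56.7% had groups without overlap, so calls were common throughout. Of the calls, 38.8% were higher with the values as deposited, 55.6% after rescaling each library to TPM and 51.5% after median-of-ratios scaling. The median log2 difference of all genes, with IL-33 minus without, was -0.11.

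Pou2af1 was at 15.1, 13.8 and 14.4 FPKM in libraries 1, 3 and 5 with IL-2 alone and at 7.27, 6.28 and 10.7 FPKM in libraries 2, 4 and 6 with IL-33. Every library with IL-33 lay below every library without. The mean level fell to 0.560 of that with IL-2 alone, a log2 difference of -0.79 (SE 0.172, interval -1.20 to -0.39, limma adjusted p 0.0109). Prdm1, the repressor known in T cells as a brake on proliferation and IL-2 production, was at 38.2, 38.1 and 21.7 FPKM with IL-2 alone and 53.0, 62.3 and 49.0 FPKM with IL-33. All 3 libraries with IL-33 were above the other 3, though library 5 was well below its 2 companions. The mean was 1.68-fold higher, a log2 difference of 0.77 (SE 0.222, interval 0.24 to 1.29, limma adjusted p 0.0301). That call was lost without IL-33 library 2 (adjusted p 0.0794), without IL-33 library 4 (0.102) and with no filter on low genes (0.0654), while the Pou2af1 call held in each of these fits, with adjusted p-values of 0.00079 to 0.0446 when libraries were left out. Libraries 5 and 6 had the lowest relative depths, 0.669 and 0.737; their part in these values was not tested.

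**Figure D4:**
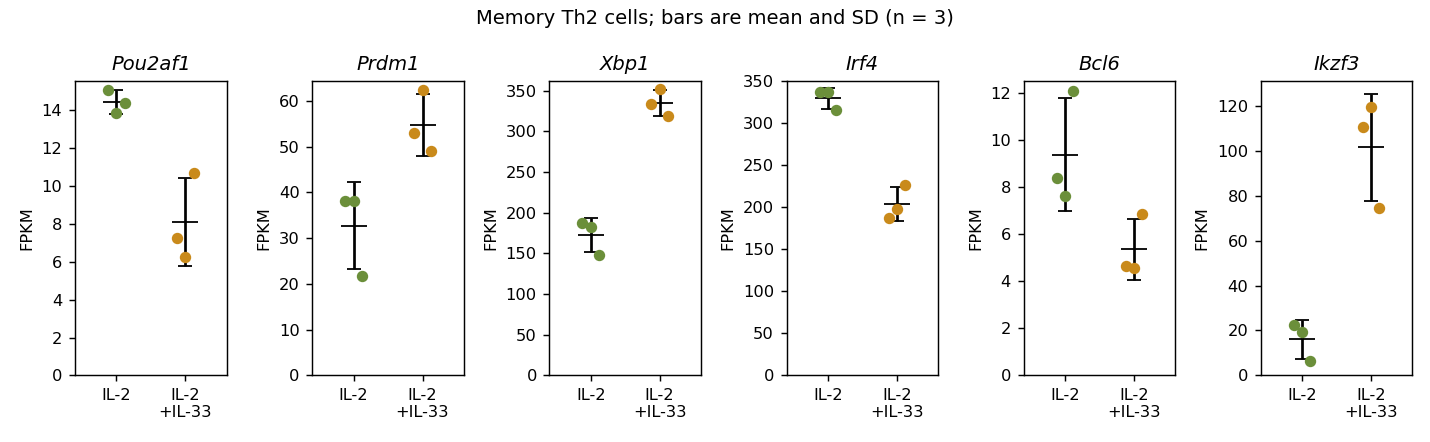
FPKM of Pou2af1, Prdm1 and 4 other regulators is plotted for 3 Th2 libraries with IL-2 and 3 with IL-2 and IL-33, with points for libraries and bars for mean and SD (n = 3). Pou2af1, Irf4 and Bcl6 are lower and Prdm1, Xbp1 and Ikzf3 higher with IL-33, without overlap in any panel.

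The other 7 members did not pass the filter in Th2 cells. The highest single value was 0.917 FPKM, of Cd79b in IL-33 library 6. Tnfrsf17 was listed at 0 in all 6 libraries, and Pax5 in 5 of 6. By an exact two-sided permutation test on log2(FPKM + 1), whose smallest possible p is 0.1, p was 0.2 for Cd79b and for Cd22, 0.4 for Ms4a1, 0.5 for Mzb1, 0.6 for Cd79a and 1 for Pax5. Cd79b was at 0.377, 0.293 and 0 FPKM without IL-33 and at 0.338, 0.610 and 0.917 FPKM with it, which overlap.

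Genes of the plasma cell list were also expressed in the Th2 cells, and their share of calls was near that of all genes tested. Of 13 plasma cell genes tested, 4 were called higher and 2 lower (median log2 difference 0.13). Called genes were thus 6 of 13, against 42.1% of all genes tested. The higher genes were Fkbp11 (log2 difference 1.46, adjusted p 0.000149), Xbp1 (0.96, 0.000944), Edem1 (0.60, 0.00196) and Derl3 (0.49, 0.0416), by limma. The Derl3 call held in 1 of 6 fits that left out a library (adjusted p 0.0256 to 0.135), and those of the other 3 in 6 of 6. The lower genes were the surface receptor Slamf7 (-1.75, limma adjusted p 0.00152) and the transcription factor Irf4 (-0.69, 0.00210). Xbp1, which drives the unfolded protein response, was at 187, 182 and 148 FPKM without and 334, 352 and 319 FPKM with IL-33. Irf4 was at 337, 337 and 315 FPKM without and 187, 198 and 227 FPKM with IL-33.

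Of 7 B lineage transcription factors tested in Th2 cells, Ikzf3 (Aiolos) was called higher (log2 difference 2.73, limma adjusted p 0.00336), and Irf8 (-2.69, 0.00221) and Bcl6 (-0.70, 0.0284) were called lower. The counts of calls here stand beside 42.1% of all genes tested, 16.3% higher and 25.7% lower. Bcl6, which is repressed by Prdm1 in B cells, was at 8.40, 7.62 and 12.1 FPKM without and 4.65, 4.56 and 6.86 FPKM with IL-33. The 3 libraries with IL-33 were all lower, though the call held in 2 of 6 fits that left out a library (limma adjusted p 0.0114 to 0.0978). Of 7 other B cell genes tested, 4 were called higher (Tnfrsf13b 0.66, Cd37 0.60, Fcmr 0.60 and Cd55 1.06 on the log2 scale) and Cd40 lower (-1.18), the last held in 1 of the 3 such fits in which it passed the filter (limma adjusted p 0.0108 to 0.0517). Of 10 receptor signalling genes tested, Cd81 was called higher (log2 difference 1.07), and the genes called lower included Ptpn6 (-1.43) and Pik3cd (-0.39, held in 2 of 6 such fits, limma adjusted p 0.0273 to 0.0991).

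Of 7 survival and homing genes tested, Cxcr4, the receptor that draws plasma cells to bone marrow niches, was called higher (log2 difference 2.29, limma adjusted p 1.79e-05), as was the B cell help cytokine Il21 (1.66, 0.0491). Tnfsf13b, which encodes the B cell survival factor BAFF, was called lower (-1.52, limma adjusted p 0.000372), as were Lta (-2.89), Ltb (-1.42) and Il6 (-1.89). With a library left out, the call of Il21 held in 1 of 6 fits (limma adjusted p 0.0461 to 0.103), that of Il6 in 1 (0.000113 to 0.121) and that of Ltb in 4 (0.00966 to 0.0792). Of 11 T cell genes tested, 7 were called higher and 2 lower, with a median log2 difference of 0.57. Over all genes tested, 16.3% were called higher and 25.7% lower.

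In the eosinophil libraries, the comparison asked whether AREG altered these genes' human counterparts. No member was called. CD22, MS4A1 and PRDM1 were higher with AREG in every sample number, MS4A1 by as little as 0.00092 on the log2 scale. CD79A was lower in every number, with log2 differences of -0.051, -0.082 and -0.67. The share of all genes with 1 direction in every number was not taken. Of the members, CD22 had the smallest unadjusted p by limma. Of 9 members, 6 passed the filter, and limma called 0 of 6, against 0.206% of 12617 genes. At an unadjusted p below 0.05 there was 1 member, CD22, and 392 genes in all. The sample numbers 2, 3 and 4 recur in both groups. With the number as a block the calls rose from 26 to 141 genes, 1.12%, with 0 of 6 members among them.

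CD22 was at 2.73, 3.13 and 1.496 FPKM in samples 2, 3 and 4 without AREG and at 7.72, 6.15 and 3.47 FPKM in the same numbers with AREG. The groups did not overlap, which also held for 6.70% of all genes tested. The log2 difference was 0.95 (SE 0.347, interval 0.13 to 1.78, unadjusted p 0.0299 and adjusted p 0.999 by limma), and within numbers it was 1.22, 0.79 and 0.84. With the block the SE was 0.223 and the limma adjusted p 0.137, so the difference did not pass the threshold under either fit.

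CD79A was at 7.71, 30.6 and 10.8 FPKM without AREG and 7.40, 28.9 and 6.42 FPKM with it. Sample 3 was highest in both groups, while samples 2 and 4 changed places, and the log2 difference was -0.27 (interval -1.89 to 1.36, limma adjusted p 0.999; 0.735 with the block). CD79B was highest in sample 4 of both groups: it was at 2.43, 2.62 and 5.23 FPKM without and 2.04, 5.34 and 6.42 FPKM with AREG. The ratio of CD79A to CD79B FPKM ran from 1.00 to 11.7 over these 6 libraries. MS4A1 was at 0.0986, 1.00 and 1.99 FPKM without and 0.283, 1.46 and 2.00 FPKM with AREG, lowest in sample 2 of both groups.

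PAX5, which defines B cells, was at or under 0.409 FPKM in all 6 eosinophil libraries. It was at 0, 0.161 and 0.402 FPKM without AREG and at 0, 0.169 and 0.409 FPKM with it, so it kept the order of the numbers. BLK, a kinase of B cell receptor signalling, was at 3.10, 19.7 and 11.4 FPKM without and 2.60, 16.7 and 6.50 FPKM with AREG, with sample 3 highest in both groups as for CD79A. Markers of other blood cells were present in the same libraries. The summed FPKM of 12 T cell genes was 258 to 567 without and 147 to 322 with AREG. All 12 had a negative log2 difference and 0 were called. The sum of 10 macrophage genes was 500 to 2411 without and 365 to 1166 with AREG. For 7 neutrophil genes it was 8104 to 21448 and 6745 to 14411, and for 7 dendritic cell genes 111 to 201 and 409 to 2212. With the block, limma called 1 macrophage gene higher and 3 lower, 2 dendritic cell genes higher and 1 neutrophil gene lower. Over all genes tested the block gave 1.12% called, and without it 0 genes of these lists were called. Their part in the members' values was not tested.

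PRDM1 was at 8.33, 5.77 and 15.2 FPKM without AREG and 12.1, 5.96 and 24.7 FPKM with it. Each number was higher with AREG, by 0.49, 0.04 and 0.66 on the log2 scale, and the mean difference was 0.40 (interval -0.89 to 1.68, limma adjusted p 0.999; 0.562 with the block). MZB1 was at 0.825, 1.48 and 0.742 FPKM without and 0.812, 2.57 and 1.36 FPKM with AREG, overlapping. The 3 members below the filter gave an exact two-sided permutation p of 0.8 for PAX5, 0.7 for POU2AF1 and 0.4 for TNFRSF17, which was listed at 0 in all 3 libraries with AREG and at 0.390, 0 and 0.585 FPKM without it.

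**Figure D5:**
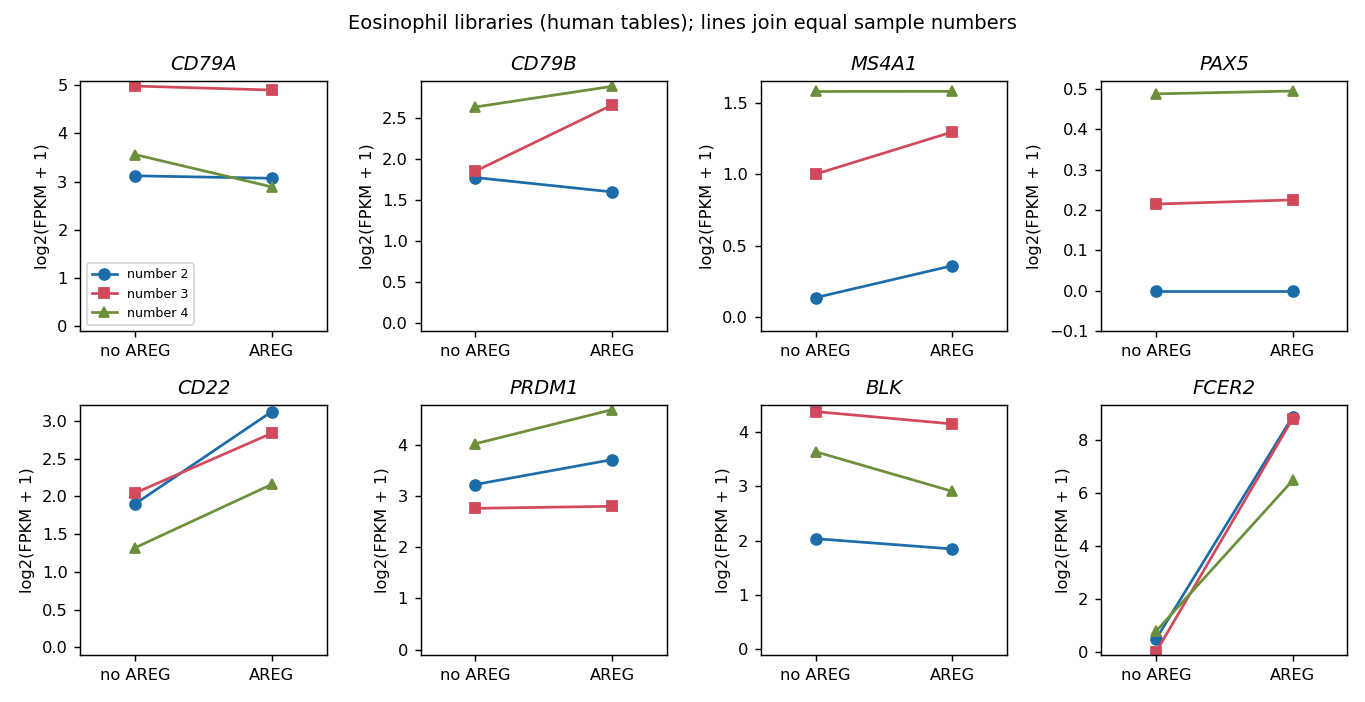
Each panel plots log2(FPKM + 1) of a human gene in eosinophil libraries without and with AREG, with a line joining equal sample numbers (2, 3 and 4). All 3 CD22 lines rise, CD79A and BLK are highest in sample 3 of both groups, and FCER2 rises from near 0.

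Among the other lists in eosinophils, 1 of 15 other B cell genes tested was called, FCER2, the low-affinity IgE receptor CD23 (log2 difference 7.63, SE 0.659, limma adjusted p 0.0225). With the block FCER2 was called as well (limma adjusted p 0.00197). The call was lost without each of the libraries without AREG in turn (limma adjusted p 0.208 to 0.993, log2 difference 7.42 to 7.81). Without any library with AREG the gene did not pass the filter. CD40 was called with the block alone (log2 difference 2.60, limma adjusted p 0.0315; 0.999 without the block), at 2.67, 2.09 and 0.818 FPKM without and 26.4, 32.7 and 3.99 FPKM with AREG. Neither is restricted to B cells. Of 9 B lineage transcription factors, 13 plasma cell genes, 16 receptor signalling genes and 7 survival and homing genes tested, 0 were called in either fit.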

How the data were processed

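Total RNA was taken with TRIzol and made into stranded mRNA libraries, per the labels. The authors deposited 1 table of FPKM values per library, made with Cufflinks 2.0.2 after TopHat 1.3.2 and Bowtie 0.12.8 on mm10, per the submitters' processing notes. These values are not counts, so no count model was used. The tables hold 23746 mouse entries and 25593 human entries; entries of 1 symbol were summed (240 mouse and 45 human symbols), and mouse starts were raised by 1. No source used here names the build of the human tables, and 138 human symbols were left out. FPKM depends on everything else in a library, so an abundant RNA lowers all other values.

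Genes with at least 1 FPKM in at least 3 of the 6 libraries of a comparison were fitted as log2(FPKM + 1) with limma 3.58.1 (trend option, R 4.3.3), and calls used a Benjamini-Hochberg adjusted p below 0.05 over all genes tested. A fold on this scale understates changes of low genes. Genes below the filter, and correlations, had exact permutation tests over libraries (scipy 1.17.1). Group membership came from the titles and label fields. All members were named whatever their result; from other lists, up to 4 called genes with the smallest p were to be named, and beyond these the called genes of lists of up to 6 calls, Cd40, Bcl6, Sdc1, Jchain, BLK and the cell markers were named after their values were seen. The 6 named genes with the highest r to Cd79a and to Mzb1 over the lungs were named as well. A few genes that this rule covers are not reported here. The members and lists were chosen with earlier results of these data known. The lists hold other B cell genes, B lineage transcription factors, plasma cell genes, immunoglobulin constant genes (0 of 12 matched by symbol), B cell receptor signalling, B cell survival and homing, and markers of T cells, macrophages, dendritic and plasmacytoid dendritic cells, eosinophils, neutrophils, erythroid cells, lung epithelium and endothelium, with housekeeping genes.

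Same-numbered eosinophil libraries deviated together from their group means (r of 0.398, 0.356 and 0.669). Unlike numbers 2 and 3 did so nearly as much (r of 0.308 and 0.280), while number 4 deviated against both (r of -0.427 to -0.505). These values set number 4 apart and do not settle the pairing of 2 and 3. The numbers come from the titles. Alternatives were other pseudocounts, filters and scalings, the highest entry per symbol, no trend, the number as a block and leaving out each library. The fit was tested on simulated data before use.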

Additional observations from a re-analysis of the deposited data

How the results depend on the processing

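In lung, 0 members were called under every setting run (lowest adjusted p 0.213) and in eosinophils likewise (0.137). Of the other lung results, the genes called fell from 13 to 3 with sample number as a replicate block, whose numbers did not pair the lungs (r of -0.286, -0.116 and -0.243 for equal numbers), and Prdm1 turned to 0.031 under median-of-ratios scaling. Genes called in eosinophils went from 26 to 7 with a pseudocount of 0.1, 8 with a filter of 5 FPKM, 141 with the replicate block and 3 without small RNA features, a setting chosen after seeing the data. In Th2 cells, no filter left 1 member called, and the share of calls that were higher was 38.8% as deposited, 55.6% after rescaling to TPM and 51.5% under median-of-ratios. Rescaling to TPM moved the eosinophil median log2 difference from 0.02 to 0.20.

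Leaving out 1 library gave 1 to 9 genes called in lung, 0 to 49 in eosinophils and 2491 to 4641 in Th2 cells, with 1 to 2 Th2 members. In lung the log2 differences then ran from -0.55 to 0.15 for Ms4a1, -0.72 to 0.24 for Cd79a, -0.36 to 0.39 for Cd79b, -0.68 to 0.19 for Cd22, -0.10 to 0.43 for Tnfrsf17, -0.66 to 0.49 for Pou2af1 and -0.082 to 0.038 for Prdm1, each changing sign. In eosinophils they ran from -0.21 to 0.53 for MS4A1, -0.91 to 0.28 for CD79A and -0.080 to 0.86 for PRDM1. The filter asked for 3 libraries in these fits too, so a gene present in 1 group alone was not tested once a library of that group was left out. The cause of the other changes was not tested. No number recurs between the Th2 groups, so no block was fitted there. Unknown depth limits what can be said of members under 1 FPKM.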

Other observations

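Ratios of plasma cell genes to Cd79a within a library were looked at after the values were seen. The ratio for Mzb1 was higher in dGATA lungs. Mzb1 over Cd79a FPKM was 0.394, 0.559 and 0.430 in wild-type lungs 1, 2 and 3 and 0.576, 1.23 and 0.846 in dGATA lungs, without overlap but with dGATA lung 1 close to wild-type lung 2. Jchain over Cd79a was 1.78, 3.98 and 3.99 in wild-type and 1.74, 7.43 and 5.10 in dGATA lungs, which overlap. Tnfrsf17 over Cd79a was 0.0255, 0.0678 and 0.0679 in wild-type and 0.0831, 0.0622 and 0.0639 in dGATA lungs, which overlap as well. Cd79a over Cd79b, 2 B cell genes, was lower in dGATA lungs without overlap. It was 1.10, 1.11 and 1.00 in wild-type and 0.717, 0.948 and 0.978 in dGATA lungs. No other B cell gene was used as the denominator for Mzb1, so its separation stands for Cd79a alone. Levels of 14.1% of all genes tested in lung were also free of overlap. No test was made of these ratios.

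MS4A1 over CD79A FPKM was 0.0128 to 0.311 in the eosinophil libraries, against 0.279 to 0.470 in lung for the mouse genes.

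Among plasmacytoid dendritic cell genes in Th2 cells, 3 of 4 tested were called lower with IL-33 by limma: Irf7 (log2 difference -2.52, adjusted p 2.93e-05), Bst2 (-2.40, 6.24e-05) and Pacsin1 (-1.45, 0.000213). Over all genes tested in that comparison, 25.7% were called lower. Irf7 was at 229 to 254 FPKM and Bst2 at 434 to 598 FPKM with IL-2 alone. Siglech, also on this list, was at 0 in all 6 Th2 libraries, and Ccr9 and Tcf4 stayed under 1 FPKM. The calls therefore speak of these genes and not of that cell type. Pacsin1 passed the filter in 3 of 6 fits that left out a library, and was called in each.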
